A study of Homo sapiens with 12 samples.

Results

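DLD1 is a human colorectal cancer cell line, and METS is a line derived from it by way of a lung metastasis in a xenograft. The comparison described here is that of H3K79me3 between these lines, gene by gene, in 1 chromatin immunoprecipitation library each. H3K79me3 is trimethylation of lysine 79 of histone H3. Its genes were the rows of the deposited H3K27me3 table, which have the extents of gene bodies on chromosomes 1 to 19 of hg19. Counts of the H3K79me3 regions lying wholly inside a row were summed, and rows with 5 or more regions were kept. This gave 6525 genes out of 49993 distinct rows (13.1%). The genes held 6393 distinct sets of regions, since rows can overlap, and 125602 of the 157878 H3K79me3 regions (79.6%) lay in at least 1 of them. The median gene had 13 regions and the largest 249. At the edge of the rule, the 603 genes with exactly 5 regions had a median log2 ratio of METS to DLD1 of 0.24, and the 752 rows with exactly 4, which were not kept, had 0.23.

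The series holds 12 libraries: H3K4me3, H3K27me3 and H3K79me3, each in 4 lines. DLD1 is labelled epithelial and parental, and METS epithelial. The sample titles, however, call every line parental, the derivatives too. The other derivatives, SPH, grown out of colonospheres, and SA, grown out of colonies in soft agar, are labelled mesenchymal, and their values are given beside those of METS. All lines grew in the same medium with serum, and each derivative is represented by a single line. With 1 library per line and mark there is no replicate error, so no p-value is given. A 95% interval beside a fold is an exact Clopper-Pearson interval, conditional on the sum of both counts, and covers counting error only. Differences between the lines, their cultures and the library preparations cannot be told apart.

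H3K79 methylation is laid down by DOT1L, which reaches transcribed genes through AF9 (MLLT3), ENL (MLLT1) and AF10 (MLLT10). The mark covers the transcribed body of active genes and is usually densest downstream of the start site. It therefore gives a view of gene activity that differs from that of H3K4me3, found at the start site itself, and of H3K27me3, the Polycomb mark of silenced genes.

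For orientation, the promoters of 4 of the genes described below are printed here: for each direction, the first genes in rank with H3K79me3 within 5 kb of the row's 5′ end, a match of at least 90% to the RefSeq gene and an entry in the promoter table. They are RefSeq sequences of build GRCh38.p14, while all other coordinates are hg19. Each runs from 250 bases before to 50 after the start, 5′ to 3′ on the gene's strand, with every CG dinucleotide in capitals. JAG2 and LHX4 carried more H3K79me3 in METS, and ACSL5 and EHF less.
JAG2, chr14:105168727-105169026, minus strand: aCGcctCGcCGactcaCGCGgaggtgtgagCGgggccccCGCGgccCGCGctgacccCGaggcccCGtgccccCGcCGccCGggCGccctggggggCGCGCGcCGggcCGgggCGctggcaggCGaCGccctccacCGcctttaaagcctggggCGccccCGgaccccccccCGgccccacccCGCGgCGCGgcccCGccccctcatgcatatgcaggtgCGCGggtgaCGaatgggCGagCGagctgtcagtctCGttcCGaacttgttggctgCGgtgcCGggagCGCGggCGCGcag
LHX4, chr1:180230014-180230313, plus strand: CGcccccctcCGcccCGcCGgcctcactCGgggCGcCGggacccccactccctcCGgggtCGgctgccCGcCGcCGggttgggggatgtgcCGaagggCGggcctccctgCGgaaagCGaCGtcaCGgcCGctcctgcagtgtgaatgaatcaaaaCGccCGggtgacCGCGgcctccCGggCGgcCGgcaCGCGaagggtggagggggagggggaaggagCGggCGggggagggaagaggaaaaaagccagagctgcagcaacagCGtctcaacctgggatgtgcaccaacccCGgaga
ACSL5, chr10:112375018-112375317, plus strand: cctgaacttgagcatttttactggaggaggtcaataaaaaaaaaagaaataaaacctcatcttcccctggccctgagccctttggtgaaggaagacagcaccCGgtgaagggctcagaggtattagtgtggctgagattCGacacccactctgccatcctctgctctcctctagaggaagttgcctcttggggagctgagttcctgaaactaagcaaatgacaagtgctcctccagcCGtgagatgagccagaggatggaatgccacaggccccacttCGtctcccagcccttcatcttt
EHF, chr11:34624007-34624306, plus strand: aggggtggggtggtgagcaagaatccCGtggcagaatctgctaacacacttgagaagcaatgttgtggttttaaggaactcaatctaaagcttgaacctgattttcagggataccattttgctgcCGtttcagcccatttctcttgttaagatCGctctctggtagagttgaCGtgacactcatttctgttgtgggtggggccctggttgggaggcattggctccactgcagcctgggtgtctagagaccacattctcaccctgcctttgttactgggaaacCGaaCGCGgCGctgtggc
The JAG2 promoter held 46 CG and that of LHX4 32, against 4 for ACSL5 and 8 for EHF. The median of the 27305 promoters in the table was 14. As many CG as in JAG2 were found in 2.83% of them, and as many as in LHX4 in 18.6%. For ACSL5 and EHF the shares were 74.7% and 60.1%.

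H3K79me3 totals were 6432882 counts in METS and 7521451 in DLD1, beside 7273964 in SA and 6165169 in SPH, and between 82.9% and 84.2% of them fell inside the genes kept. CPM are counts scaled to these totals. Of 12 markers of colon epithelium 10 had a row and 6 were kept. The other 4 rows had fewer than 5 regions, and 3 of them held no region. Genes were kept for having regions, so that the 6 were marked was largely fixed in advance. Their median log2 ratio was 0.10, and the list summed to 1652 CPM in DLD1 and 1601 CPM in METS. The 6 kept, KRT8, KRT18, KRT19, CDX2, CDH1 and ELF3, had ratios between -0.31 and 0.53. The lines labelled mesenchymal carried the mark at CDH1 and ELF3 too: CDH1 had 857, 682, 840 and 693 CPM in DLD1, SA, SPH and METS, and ELF3 109, 70.9, 205 and 158 CPM. CDH1 and ELF3 therefore did not separate the lines by label. The rows found for markers of fibroblasts (8), endothelium (4) and lung epithelium (7) held no region of the table, so their sums are 0 in every line by construction and test nothing. Leukocyte markers, with no region in 4 of their 7 rows, summed to 1.73 CPM in DLD1 and 3.58 CPM in METS.

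More genes were higher than lower in METS. With 0.5 CPM added to both values, 181 of the 6525 genes (2.77%) were at least 2-fold higher in METS and 43 (0.659%) at least 2-fold lower. At 1.5-fold the counts were 756 (11.6%) and 208 (3.19%). Joining rows that overlap, the 181 genes lay at 167 loci and the 43 at 37. Rows that only lie side by side, such as INTS11 and CPTP on chromosome 1, were not joined and count as separate loci. At 4-fold, 15 genes were higher and 3 lower. The split depended on scaling: higher genes made up 80.8% of those past 2-fold under library totals, 67.2% under TMM factors (125 higher and 61 lower) and 59.3% under quantile normalization (124 and 85).

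The median log2 ratio over all genes was 0.085, with an interquartile range of -0.12 to 0.34, and ranged from -3.09 to 4.91. The regions of a gene mostly lay on the same side in the higher genes: every region was higher in METS in 136 of the 181 genes, and every region lower in 22 of the 43. The higher genes also had fewer regions, 9 at the median against 14. How regions were chosen is not given, and a region may be listed only because METS was high there. Regions of a gene are not replicates, so their agreement, here and at the genes below, is not separate support. The groups also differed in level. The genes higher in METS reached, at the median, 42.0 CPM in METS and 14.8 in DLD1, beside 15.9 in SA and 23.8 in SPH. The genes lower in METS had 44.8 CPM in METS and 139.6 in DLD1, beside 99.8 in SA and 92.1 in SPH. For all genes the medians were 64.7 CPM in DLD1 and 71.0 CPM in METS.

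The genes with little H3K79me3 held most of those that were higher in METS. Ranked by CPM per kb in DLD1 and METS together and cut into 5 classes of equal size, the lowest class (up to 6.97 CPM per kb) had a median log2 ratio of 0.29 and held 98 of the 181. The medians of the next classes, upwards, were 0.11, 0.05, 0.04 and -0.04. SA and SPH did not show this order against DLD1: in the lowest class their medians were -0.03 and -0.13, and in the highest -0.01 and 0.04. The METS library also left the fewest H3K79me3 regions without a count, 2875. DLD1 had 3784 such regions and SA 3974, although their totals were larger than that of METS, and SPH had 4998. Whether this difference between libraries accounts for the higher ratios at genes with little H3K79me3 was not tested.

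**Figure D1:**
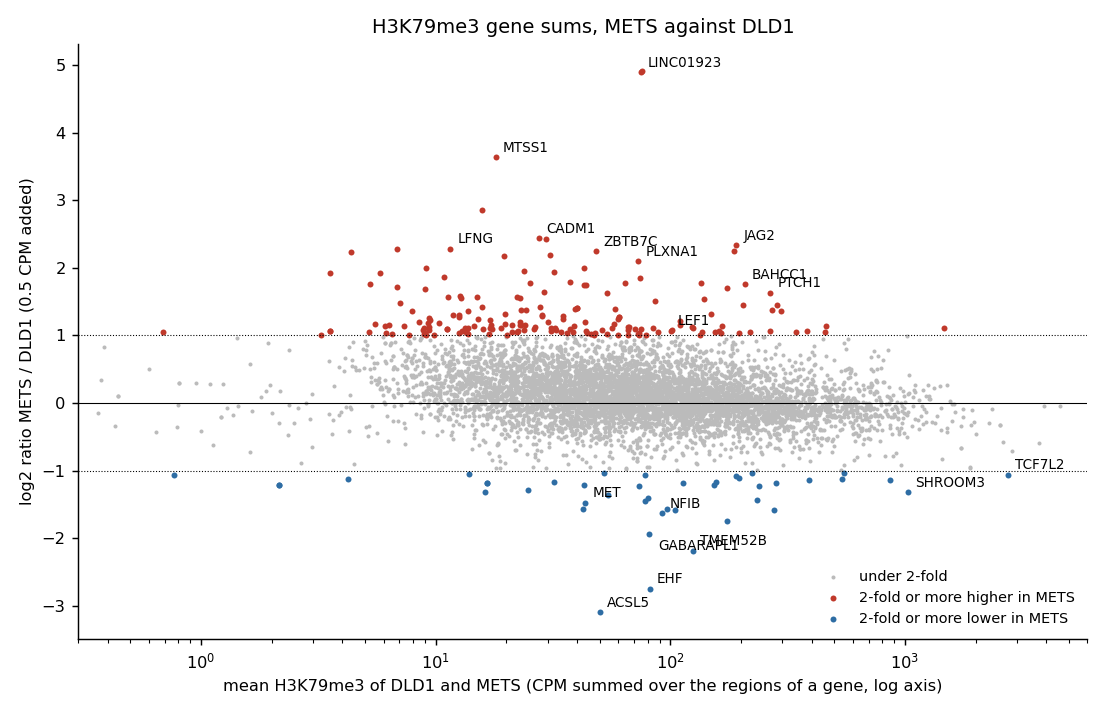
Log2 ratio of METS to DLD1 (0.5 CPM added) against the mean summed CPM of both lines (log axis), 1 point per gene for 6525 genes; red and blue points are the 181 and 43 genes past 2-fold, which the dotted lines mark. The cloud of grey points sits slightly above 0 at low levels and near 0 at high levels, and LINC01923, MTSS1, ACSL5 and EHF stand farthest from it among the labelled genes.

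The genes described next were taken by rank on the interval bound nearest 1, the first 12 in each direction among genes with 100 or more counts in both lines together. Where 4 CPM values stand in a row, they belong to DLD1, SA, SPH and METS, in that order. The largest difference was at a noncoding locus on chromosome 2. LINC01923, a long noncoding RNA gene (chr2:199164087-199239821), had 145 CPM in METS and 4.39 in DLD1, beside 5.64 in SA and 46.7 in SPH. That is 33 counts in DLD1 and 933 in METS, a fold of 33.1 (interval 23.4 to 48.3). METS was highest, SPH intermediate, and DLD1 and SA were both near the floor: in DLD1, 12 of its 31 regions had no count and no region exceeded 4, while METS had 6 to 79 per region. The ranked row was the longer one around it (chr2:198669426-199437305, 33 regions, best matched by PLCL1 over 44.9% of the joint extent), with 33 and 943 counts and a fold of 33.4 (23.6 to 48.8). Taken as the median of its regions, with 0.5 CPM added to each, the log2 ratio of this row was 2.90 in place of 4.91, and the same reading gave 2.24 for MTSS1, 2.04 for the chromosome 10 row, 1.46 for LINC02888, 1.20 for CADM1, 1.55 for LFNG and 1.55 for LHX4, all described below.

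Protein-coding genes followed. MTSS1, an actin- and membrane-binding scaffold protein (chr8:125563031-125740730), had 33.7 CPM in METS and 2.26 in DLD1, beside 3.85 in SA and 1.95 in SPH. METS stood alone, at 14.9-fold DLD1 (9.11 to 26.1), and all 11 regions were higher. CADM1, a cell adhesion molecule of the immunoglobulin family (chr11:115039938-115375675), had 8.24, 10.4, 10.9 and 46.8 CPM in DLD1, SA, SPH and METS. DLD1, SA and SPH lay close together and METS was 5.68-fold above DLD1 (4.31 to 7.59), with all 21 regions higher. PLXNA1, a receptor for semaphorins (chr3:126707437-126756235), had 27.4, 19.5, 42.0 and 118.9 CPM in DLD1, SA, SPH and METS, a fold of 4.34 (3.72 to 5.09). All 24 of its regions were higher, beginning 0.33 kb from the 5′ end of the row. NSMF, named for its role in synapse-to-nucleus signalling (chr9:140342022-140353786), had 16.9, 18.01, 39.7 and 69.0 CPM, a fold of 4.09 (3.35 to 5.02).

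Both Notch genes in the ranked set were higher in METS. JAG2, a ligand of Notch receptors (chr14:105607318-105635161), had 318 CPM in METS and 62.9 in DLD1, beside 66.5 in SA and 117 in SPH. The fold was 5.06 (4.58 to 5.61), on 473 and 2048 counts, and all 25 regions were higher. An unnamed row overlaps JAG2, and with the regions of a single row alone the log2 ratio was 3.33 in place of 2.33. Its most heavily counted region (chr14:105630727-105631266), 4.16 kb from the 5′ end, had 97 counts in DLD1 and 357 in METS. LFNG, a glycosyltransferase that modifies Notch receptors (chr7:2552163-2568811), had 3.59, 4.12, 11.2 and 19.4 CPM in DLD1, SA, SPH and METS, a fold of 5.41 (3.55 to 8.54). In both genes SPH lay between METS and the other lines.

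The higher set also held transcription factor genes. ZBTB7C, a zinc finger protein of the BTB family (chr18:45553044-45937123), had 79.9 CPM in METS and 16.5 in DLD1, beside 12.5 in SA and 10.2 in SPH, a fold of 4.85 (3.98 to 5.95). Its 25 regions began 250 kb from the annotated 5′ end, so its sum came from the distal part of the row. LHX4, a LIM homeobox factor (chr1:180199421-180249380), had 6.78, 9.62, 7.62 and 32.5 CPM, a fold of 4.79 (3.51 to 6.64), and its 8 regions, all higher, began 2.51 kb from the 5′ end. TFAP2A-AS1 (chr6:10409573-10416679) had 10.6, 7.15, 3.24 and 50.5 CPM, a fold of 4.75 (3.71 to 6.14). It lies inside the row of TFAP2A, an AP-2 transcription factor, and the assay does not separate strands, so its reads cannot be told apart from those of TFAP2A. The set closed with LINC02888 on chromosome 7 (8.91, 10.2, 6.002 and 50.2 CPM, 5.64-fold) and an unnamed row (chr10:118430703-118502085, best matched by HSPA12A over 39.8% of the joint extent) with 3.46, 2.75, 3.57 and 28.1 CPM, 8.14-fold (5.38 to 12.8).

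**Figure D2:**
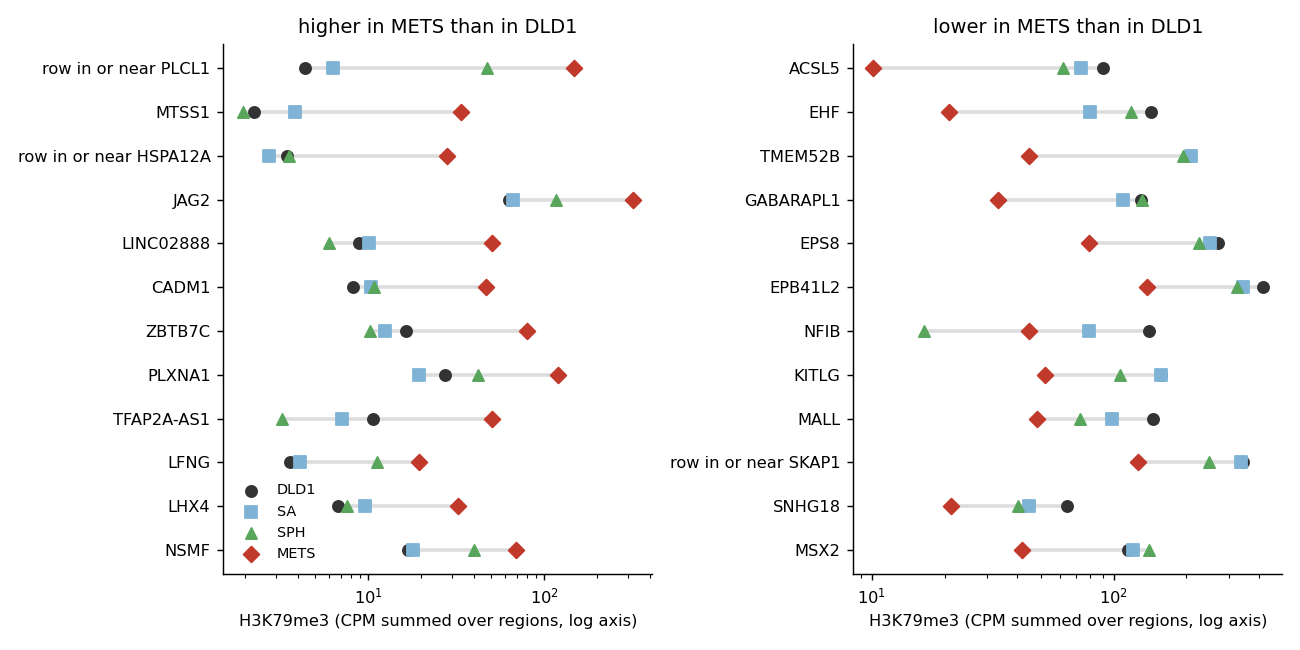
Summed H3K79me3 CPM (log axis) of the 24 ranked genes in DLD1 (circles), SA (squares), SPH (triangles) and METS (diamonds), 1 library each; the grey bar spans the lowest to the highest line. METS is the highest of the lines in all 12 genes on the left and the lowest in 11 of the 12 on the right, the exception being NFIB, where SPH is lower.

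The largest differences in the other direction were at an enzyme of lipid metabolism and an epithelial transcription factor. ACSL5, which activates long-chain fatty acids and is strongly expressed in intestinal epithelium (chr10:114133776-114188138), had 10.1 CPM in METS and 90.01 in DLD1, beside 73.0 in SA and 61.6 in SPH. METS was 8.91-fold below DLD1 (6.90 to 11.7), on 65 against 677 counts, at all 5 regions. EHF, an ETS factor restricted to epithelia (chr11:34642640-34682604), had 20.8 CPM in METS and 142.7 in DLD1, beside 79.7 in SA and 118 in SPH, 6.85-fold lower (5.72 to 8.26). All 11 of its regions were lower, by 3.97-fold to 13.4-fold. For both genes METS was well below each of the other lines.

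Neighbouring genes on chromosome 12 were low together. TMEM52B, a transmembrane protein gene (chr12:10323141-10344400), had 44.8 CPM in METS and 206 in DLD1, beside 209 in SA and 194 in SPH, 4.59-fold lower (4.05 to 5.22). GABARAPL1, an autophagy protein of the ATG8 family (chr12:10365057-10375727), had 129.5, 109, 131 and 33.4 CPM in DLD1, SA, SPH and METS, 3.87-fold lower (3.34 to 4.51). The other lines agreed closely at both genes. Farther along the chromosome, EPS8, an actin-capping adaptor of growth factor signalling (chr12:15773092-16035263), had 269, 251, 225 and 79.4 CPM, 3.39-fold lower (3.07 to 3.74). KITLG, the ligand of the KIT receptor (chr12:88886570-88974628), had 157, 157, 106 and 52.2 CPM, 3.01-fold lower (2.67 to 3.41).

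The other ranked genes with less H3K79me3 in METS included genes of the membrane skeleton and of transcription. EPB41L2, a protein 4.1 family member that links membrane proteins to actin (chr6:131160487-131384462), had 137.9 CPM in METS and 414 in DLD1, beside 342 in SA and 324 in SPH, 3.004-fold lower (2.79 to 3.24) with all 49 regions lower. MALL, a MAL-like membrane protein (chr2:110841447-110874143), had 145, 98.0, 72.8 and 48.3 CPM, 2.998-fold lower (2.64 to 3.41). NFIB, a nuclear factor I gene (chr9:14081842-14398982), had 139.6, 79.2, 16.4 and 44.8 CPM, 3.12-fold lower in METS than in DLD1 (2.73 to 3.57). It was the gene of this set in which METS was not the lowest line. MSX2, a homeobox factor (chr5:174151536-174157896), had 115, 119.7, 139.8 and 41.7 CPM, 2.76-fold lower (2.41 to 3.18). SNHG18, a small nucleolar RNA host gene (chr5:9546312-9550721), had 63.9, 44.8, 40.2 and 21.3 CPM, 3.003-fold lower (2.48 to 3.66). A row on chromosome 17 inside the extent of SKAP1 (chr17:46263300-46281891) had 344, 335, 248 and 126.5 CPM, 2.72-fold lower (2.51 to 2.94).

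**Figure D3:**
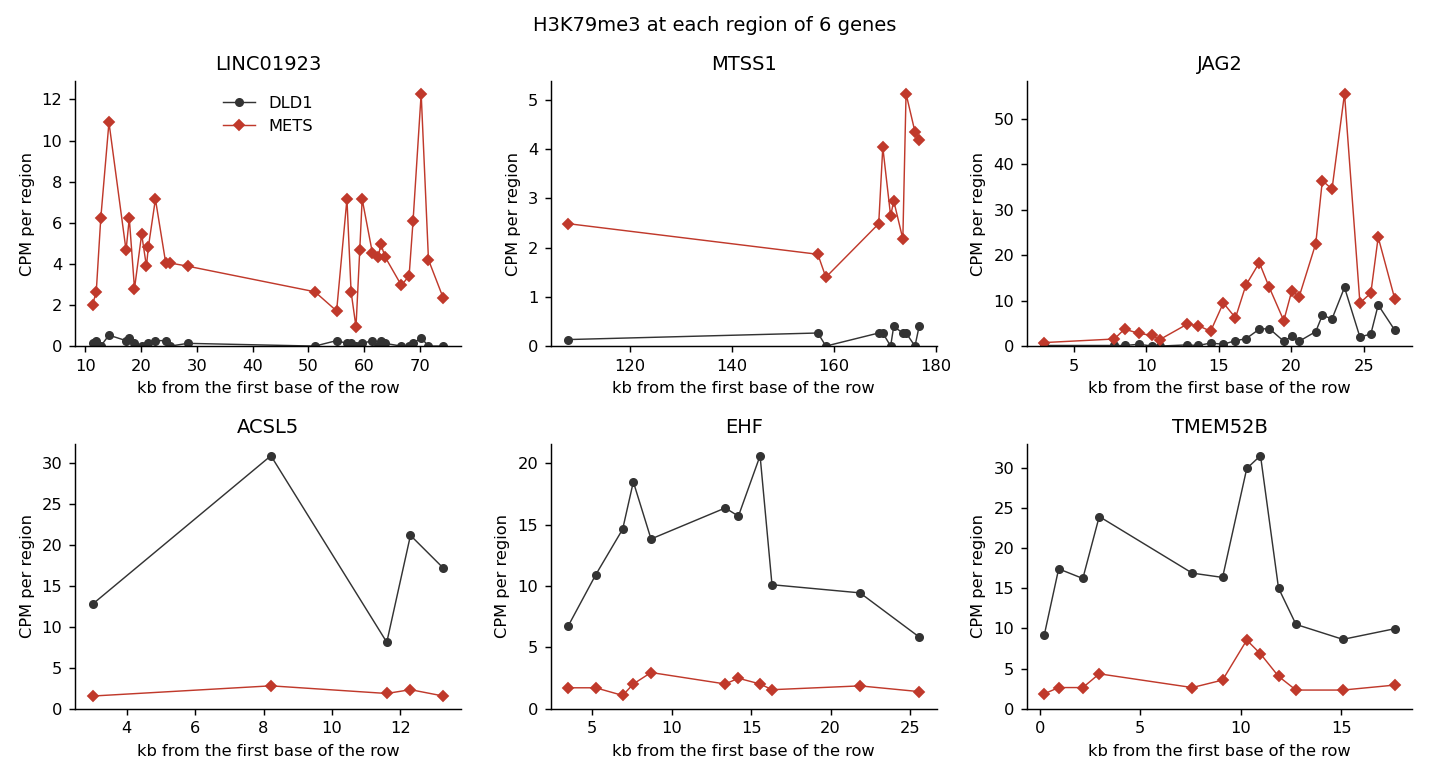
CPM of each H3K79me3 region in DLD1 (circles) and METS (diamonds) against the distance in kb of its centre from the first base of the row, for 3 genes higher in METS (top) and 3 lower (bottom); lines join regions in order. In LINC01923 DLD1 stays near 0 over all 31 regions, in JAG2 both lines peak at the same regions, and in ACSL5, EHF and TMEM52B METS lies below DLD1 at every region.

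DOT1L and genes linked to it were examined as a list of 14 genes, of which 11 were kept. Over all 6525 genes, 2.77% were at least 2-fold higher and 0.659% lower, and 11.6% and 3.19% at 1.5-fold. These shares stand beside every list below. In the DOT1L list none passed 2-fold, and 1 passed 1.5-fold. That was MLLT3, which encodes AF9 (chr9:20341663-20622542), with 2163 CPM in METS and 3551 in DLD1, beside 3719 in SA and 3067 in SPH. It was 1.64-fold lower in METS (1.61 to 1.68), with 236 of its 249 regions lower. Its paralogue MLLT1 (ENL) had 182, 180, 299 and 264 CPM and was 1.45-fold above DLD1 (1.35 to 1.56), with 45 of 47 regions higher. DOT1L itself had 450.3, 393, 608 and 547 CPM, a log2 ratio of METS to DLD1 of 0.28, which became -0.02 when ratios were centred on its chromosome. CDK9 had a log2 ratio of 0.48, and MLLT10, AFF1, AFF4, ELL, CCNT1 and MLLT6 lay between -0.18 and 0.21. Of these, ELL turned negative under centring on the chromosome and MLLT6 turned negative under TMM factors as well. The median of the list was 0.12, against 0.085 for all genes, and turned to -0.07 under centring on the chromosome.

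Among epithelial genes the differences were uneven. Of 12 epithelial regulators 9 were kept, and EHF was the 1 past 2-fold, lower in METS, beside 0.659% of all genes. ELF3, also an ETS factor, had a log2 ratio of 0.53, KLF4 of 0.57, KLF5 of -0.53 and GRHL2 of -0.42. Of 20 epithelial junction genes 10 were kept, with a median of -0.34. PKP2, a desmosomal plakophilin, was lowest at -0.99 and was the 1 member past 1.5-fold. CTNND1 had -0.52, DSP -0.40, TJP1 -0.38 and CDH1 (E-cadherin) -0.31, while DSG2 had 0.32. Of the 9 EMT transcription factors 6 had a row, and of the 13 mesenchymal genes 10, and none of these rows had 5 regions. The first list summed to 0.798 CPM in DLD1 and 1.40 CPM in METS, and the second to 11.7 CPM and 6.68 CPM. However, 5 of the 6 rows and 9 of the 10 held no region, so they are 0 by construction. Each sum came from the remaining row alone and does not describe the list. Of 12 intestinal identity factors 8 had a row and 4 were kept, and the other 4 rows held no region. The 4 kept had a median of -0.22 and a lowest value of -0.58. Among them, GATA6 had -0.47, FOXA1 0.02 and CDX2 0.09.

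In the Wnt pathway, the nuclear effectors of β-catenin differed in opposite directions. TCF7L2 (chr10:114710009-114927437) had 1777 CPM in METS and 3712 in DLD1, beside 3264 in SA and 2777 in SPH. It was 2.09-fold lower in METS (2.04 to 2.14), with 197 of 203 regions lower. LEF1 (chr4:108968701-109090112) had 64.7, 104, 76.2 and 136.5 CPM and was 2.11-fold higher (1.88 to 2.36), with all 42 regions higher. Its log2 ratio of 1.07 fell to 0.99 under TMM factors and 0.92 under quantile normalization, just under 2-fold. TCF7 had a log2 ratio of 0.80. RNF43, a ubiquitin ligase that limits Wnt receptors, had -0.97, LGR5 -0.30 and AXIN2 -0.29, and CTNNB1 had -0.05. The list had 13 of 22 genes kept, with 1 higher and 1 lower at 2-fold and a median of 0.05, which became -0.03 under TMM factors.

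Notch had 6 of 15 genes kept, and JAG2 and LFNG were the members past 2-fold, both higher, beside 2.77% of all genes. NOTCH2 had a log2 ratio of -0.48, RBPJ of -0.18, MAML1 of 0.13 and NUMB of 0.26. In the TGF-β and BMP list 14 of 21 were kept and none passed 2-fold. The type I receptor TGFBR1 had 0.74 and the corepressor SKI 0.76, while the type II receptor TGFBR2 had -0.74 and SMAD3 -0.72. The list median was 0.00.

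Receptor and adhesion genes gave 1 member past 2-fold. MET, the receptor of hepatocyte growth factor (chr7:116312444-116438440), had 22.7 CPM in METS and 64.1 in DLD1, beside 99.8 in SA and 92.1 in SPH, 2.82-fold lower than DLD1 (2.34 to 3.42) at all 11 regions. EREG, a ligand of the EGF receptor, had a log2 ratio of -0.85, AREG of -0.41 and EGFR of -0.40, against 0.77 for ERBB3, 0.78 for FGFR1 and 0.97 for IGF1R. IGF2R had 0.98. Of 14 integrin and adhesion genes kept, ITGB4 (0.98), LAMA3 (0.76) and ITGA1 (0.62) were over 1.5-fold higher, beside 11.6% of all genes. ITGB4 encodes a subunit of the hemidesmosomal integrin and LAMA3 a chain of its laminin ligand. None was over 1.5-fold lower, and ITGA3, ITGA6 and LAMC1 lay between -0.54 and -0.44. The list median was -0.28.

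Among actin and cytolinker genes 17 of 26 were kept, with a median of -0.14 and 1 member past 2-fold. DST, a cytolinker (chr6:56322785-56819426), had 106, 84.4, 70.4 and 50.5 CPM, 2.10-fold lower (1.84 to 2.40), while MACF1, of the same family, had a log2 ratio of -0.19. Of 20 histone and DNA methylation enzymes kept none passed 2-fold. KDM6B (0.87), SETD1B (0.78) and SETD1A (0.70) were over 1.5-fold higher, 3 of 20 beside 11.6% of all genes. EZH2, SUZ12 and EED lay between -0.21 and 0.01. The remaining lists reported here had no member past 2-fold. They were insulin-like growth factor (6 of 15 kept), cell cycle (7 of 21), glycolysis and hypoxia (8 of 22) and interferon genes (6 of 25). With so few kept, beside 2.77% and 0.659% of all genes, this says little about these lists.

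**Figure D4:**
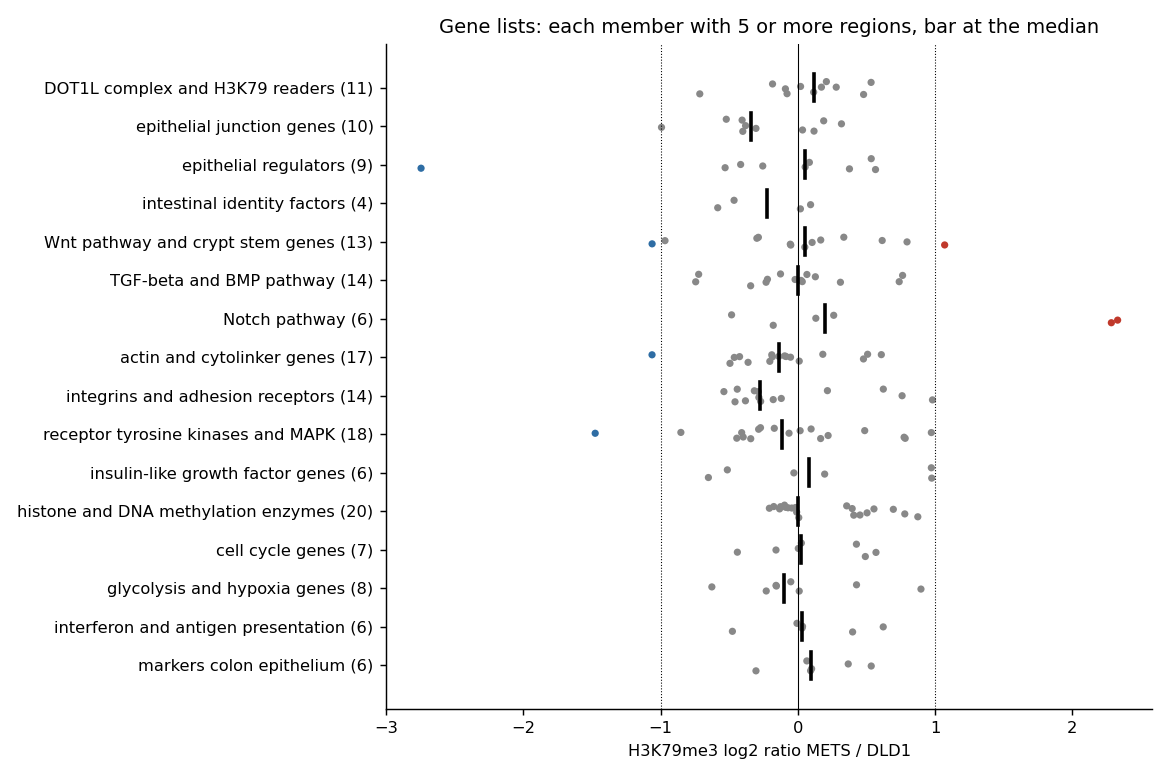
H3K79me3 log2 ratio of METS to DLD1 for each list member with 5 or more regions (points, spread vertically for legibility), with the list median as a black bar, the number of members in brackets and the 2-fold thresholds dotted. Points past 2-fold are coloured, and JAG2 and LFNG to the right and EHF to the left lie farthest out.

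The other marks, from separate libraries, were compared at the same genes. H3K4me3 was taken from regions inside the row or within 1000 bp of it. Over all genes it hardly differed: 13 of 6396 genes (0.203%) were at least 2-fold higher in METS and 1 (0.0156%) lower. H3K27me3 counts of the rows themselves were at least 2-fold higher in 2 of 6525 genes (0.0307%) and lower in 27 (0.414%). At the 181 genes higher in H3K79me3, H3K4me3 had a median log2 ratio of 0.08 over the 176 with a value, against 0.00 for all genes, and H3K27me3 of -0.28, against -0.04. There, 5 genes were 2-fold higher in H3K4me3 and 11 were 2-fold lower in H3K27me3, with none the other way. At the 43 lower genes the medians were -0.09 for H3K4me3 and 0.04 for H3K27me3.

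Some genes were marked differently by more than 1 modification. MTSS1 had 1595 H3K27me3 counts in DLD1 and 941 in METS, 2.20-fold lower (2.03 to 2.39) in CPM, and its H3K4me3 log2 ratio was 0.15. CADM1 was 2.21-fold lower in H3K27me3 (2.10 to 2.33), and TFAP2A-AS1 4.98-fold lower (3.41 to 7.44), on 134 and 35 counts. LFNG had 2.25-fold less H3K27me3 (1.68 to 3.04) and an H3K4me3 log2 ratio of 0.61. In DLD1, SA, SPH and METS, H3K27me3 was 102, 75.2, 82.9 and 46.4 CPM at MTSS1 and 252, 164, 192 and 114 at CADM1. It was 8.33, 6.62, 4.31 and 3.70 CPM at LFNG, and 8.59, 10.2, 12.1 and 1.73 at TFAP2A-AS1. SA and SPH were thus also below DLD1 at these genes, except at TFAP2A-AS1. BAHCC1 had 3.39-fold more H3K79me3 and 2.42-fold less H3K27me3 (2.15 to 2.72) in METS than in DLD1. Its H3K79me3 was 94.5, 225, 549 and 321 CPM in the same order of lines, and its H3K27me3 51.6, 32.7, 10.6 and 21.3 CPM. SPH was thus farther from DLD1 than METS was in both marks of BAHCC1. A row that overlaps the start of its extent (chr17:79369275-79375658) had 75 H3K27me3 counts in METS and 504 in DLD1, beside 251 in SA and 26 in SPH, 8.74-fold lower in METS (6.84 to 11.3).

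H3K4me3 differed at fewer genes. LINC01923 had 0 H3K4me3 counts in DLD1 and SA, 10 in SPH and 18 in METS, so SPH and METS were the higher lines in both marks. MUC5AC, a gel-forming mucin gene, had 87, 157, 67 and 260 H3K4me3 counts in DLD1, SA, SPH and METS and 4.02-fold more H3K79me3 in METS. MAB21L4 had 107 and 341 H3K4me3 counts in DLD1 and METS, and GAS7 18 and 68. Among the lower genes, EHF had 77, 68, 88 and 28 H3K4me3 counts in the 4 lines, 2.99-fold lower in METS. TMEM52B had 33, 51, 78 and 247 H3K27me3 counts, with METS highest, and was the 1 lower gene with 2-fold more of this mark. ACSL5 had an H3K27me3 log2 ratio of 0.22 and an H3K4me3 log2 ratio of -0.46.

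**Figure D5:**
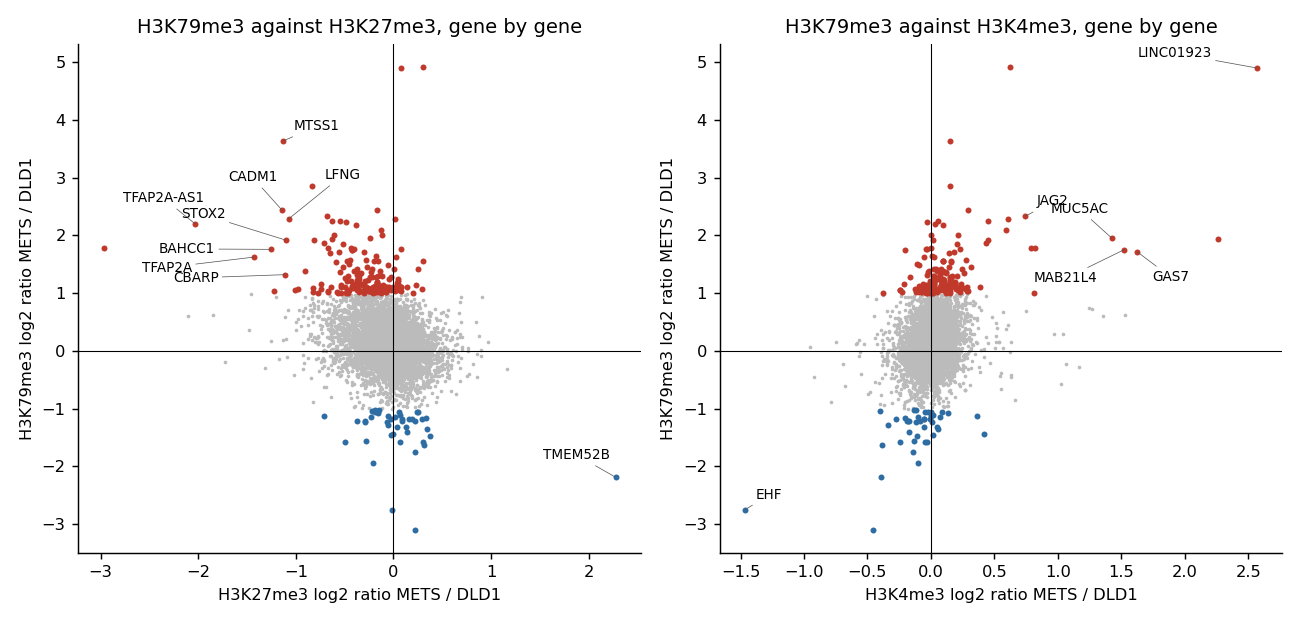
H3K79me3 log2 ratio of METS to DLD1 against that of H3K27me3 (left) and H3K4me3 (right), 1 point per gene, with genes past 2-fold in H3K79me3 in red and blue. Of the red points 155 of 181 lie left of 0 in H3K27me3, against 3791 of all 6525 genes. In H3K4me3 LINC01923 is the red point farthest right and EHF the blue point farthest left.

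Ratios also differed between chromosomes. The median log2 ratio of H3K79me3 was 0.30 on chromosome 19 (225 genes), 0.21 on chromosome 16, 0.16 on chromosome 9 and 0.14 on chromosome 8, and -0.02 on chromosome 18. Under TMM factors the first became 0.21 and the last -0.10. On chromosome 19 H3K4me3 had a median of 0.04 and H3K27me3 of -0.16. Chromosomes 8 and 9 held 17 higher genes each (6.30% and 5.48% of their genes), with 0 and 1 lower. Chromosome 16 held 16 (4.83%), with 0 lower. Over all genes the shares were 2.77% higher and 0.659% lower. Several of the higher genes of chromosomes 8 and 9 lay in chr8:143293441-145752416 and chr9:139270029-140484942. The share of all genes kept that lie there was not taken, so this is no measure of clustering.

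Some called rows have near-identical copies elsewhere in the genome and are uncertain, among them NPIPB5, PKD1P1, PKD1P6, PDPR2P, CASTOR2 and POLR2J3-UPK3BL2. How reads with several matches were counted is not given in the sources used here.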

How the data were processed

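The authors deposited raw read counts per region, 1 file per library, for H3K4me3, H3K27me3 and H3K79me3 (whole numbers in every file). The build was hg19 per the submitters' processing notes. The aligner, region caller and any input control are not given in the sources used here. The H3K27me3 table states that 7773 further rows were skipped, and those are not used here.

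Counts were divided by the column total of their mark's table (CPM), and a region was assigned to every row that held it whole. Called genes passed 2-fold with 0.5 CPM added, while folds of named genes are ratios of CPM. On simulated counts for these 6525 genes, 49 of 50 genes raised 2.5-fold and 48 of 50 lowered 2.5-fold were called, with 4 of 6325 unchanged genes. The simulation holds counting error only, with no spread between cultures or preparations, so it gives no false call rate for these data.

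The files hold no gene names. Symbols came from RefSeq's GRCh38.p14 gene table by gene length and spacing alone, without converting coordinates. In all, 1380 rows of at least 2000 bp had exactly the length of a gene of their chromosome and the same spacing to another such gene. Other rows were named where their extent, placed by distance from the nearest of these, overlapped a gene by 50% or more of the joint extent. All 1380 received the same symbol when placed from the others. They had been chosen by that shared spacing, so this was largely fixed in advance and does not test the names of other rows. In all, 5590 of the 6525 genes (85.7%) received a symbol, 4878 of them at 80% overlap or more. A symbol is therefore a match by extent, not an identifier of the files.

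The named genes were the first 12 each way with 100 or more counts, ranked by the interval bound nearest 1 and skipping rows that share a region, with list members past 2-fold and the DOT1L list. Promoters of chromosome 8 are not printed. A gene or row outside this rule was named after its values were seen. The members and lists were chosen with earlier results of these data known. Alternatives were TMM (edgeR 4.0.16), DESeq2 1.42.0 size factors, quantile normalization, centring, other added values, thresholds, filters and assignments of regions. SciPy 1.17.1 gave the intervals. PCR copies were not marked. Some genes and 1 gene list are not reported here.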

Additional observations from a re-analysis of the deposited data

How the results depend on the processing

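None of the named genes past 2-fold changed direction under the alternatives run for them. They had been chosen for ratios far from 1, so this was largely fixed in advance. Other genes past 2-fold were not followed one by one. The number of genes higher and lower in METS, 181 and 43, became 756 and 208 at 1.5-fold, 37 and 6 at 3-fold, 832 and 92 with no minimum beyond 1 region (12129 rows), 85 and 30 with 10 regions, and 45 and 27 with genes below the median count left out. Quantile normalization gave 124 and 85, and centring on the chromosome median 119 and 63. TMM factors gave 125 and 61, as did centring on the median gene, and DESeq2 size factors gave 123 and 61. With 0.1 CPM added the numbers were 197 and 47, and with 2 CPM added 134 and 37. Counting any overlap gave 179 and 44, the shortest row only 164 and 39, and regions of a single row 151 and 31. Requiring an interval that excludes 1 gave 180 and 42. The changed thresholds and filters call or test other numbers of genes by construction, and for the scalings the cause was not tested. Taking the median over a gene's regions of the region log2 ratio moved 21 of 41 named genes. Since 0.5 CPM is then added to each region, values of thinly counted genes are drawn towards 0 by construction. The chromosome 2 row went from 4.91 to 2.90, MTSS1 from 3.63 to 2.24, the chromosome 10 row from 2.86 to 2.04, LINC02888 from 2.43 to 1.46, CADM1 from 2.44 to 1.20, LFNG from 2.29 to 1.55, LHX4 from 2.18 to 1.55 and DST from -1.06 to -0.68. JAG2 went from 2.33 to 3.33 with regions of a single row only. Low counts limit the weaker genes, as in GLI2 and NPIPB5. No paired analysis was possible because each line has 1 library per mark and no test was made.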

Other observations

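These genes were chosen after their values were seen. Among the genes with more H3K79me3 in METS, PTCH1, the Hedgehog receptor, had 404 CPM in METS and 130.2 in DLD1, beside 182 in SA and 190.1 in SPH, 3.10-fold above DLD1 (2.88 to 3.34), with 44 of 45 regions higher. GLI2, a transcription factor of Hedgehog signalling, was 6.24-fold higher (3.03 to 14.5), on 9 counts in DLD1 and 48 in METS. GPC1, a glypican, had 81.4, 54.7, 97.6 and 266 CPM in DLD1, SA, SPH and METS, 3.27-fold above DLD1. The Src-family kinase gene FYN had 108, 91.1, 78.2 and 298 CPM, with all 77 regions higher. RXRA had 151, 146, 362 and 393 CPM, so that SPH lay close to METS, and FASN, fatty acid synthase, had 171, 129, 351 and 359 CPM.

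Among the lower genes, NFIA had 335, 565, 395 and 143 CPM in DLD1, SA, SPH and METS, 2.34-fold below DLD1 (2.17 to 2.53), and like NFIB it encodes a nuclear factor I protein. SHROOM3, an organizer of apical actin, had 1469, 1105, 1082 and 588 CPM, 2.495-fold lower (2.40 to 2.59), with 120 of 125 regions lower. SAV1, a scaffold of the Hippo pathway, had 158, 124, 72.0 and 69.2 CPM. IFNGR1, a subunit of the interferon-γ receptor, had 257, 199, 164 and 122 CPM, with all 14 regions lower.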
